A study of Mus musculus with 4 samples.

Results

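Expression of 37 genes of the Notch pathway, among 19297 genes measured, was compared in whole spleens of 2 leukaemic and 2 wild type mice. The genes were taken by symbol from a list that runs from ligands and receptors to processing enzymes, nuclear factors and target genes. All 37 were on the array, with 40 probe sets between them, and no filter on low values was applied, so all 37 entered the test. Rbpj, Maml2 and Psenen had 2 probe sets each and are represented by the one with the higher mean over the 4 arrays. RNA of 1 mouse was hybridised to each array.

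The mice were of strain 129Sv. Both leukaemic mice had the genotype RBP-J flox/flox;Ren1dcre/cre, that is, loxP sites around both copies of RBP-J and cre recombinase at both copies of the renin gene Ren1d. Leukaemic replicate 1 was a female of 107 days with a spleen of 0.7 g, and leukaemic replicate 2 a male of 93 days with a spleen of 0.47 g. The wild type mice, RBP-J flox/flox;Ren1d+/+, carried the same floxed alleles without cre. They were females of 80 and 81 days with spleens of 0.12 and 0.16 g. Cre placed at Ren1d can act only in cells in which that locus is or was active, so a leukaemic spleen may also hold cells that keep RBP-J. The share of such cells was not measured. Cre, age and spleen weight differ between the groups along with the leukaemia, and their parts cannot be told apart. The only male was in the leukaemic group.

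Notch receptors are cut after they bind a Delta or Jagged ligand on a neighbouring cell. ADAM proteases make the first cut and gamma-secretase the next, and the freed intracellular part enters the nucleus. There it joins the DNA-binding protein RBP-J, encoded by Rbpj, and a Mastermind co-activator, which turns on genes of the Hes, Hey, Deltex and Nrarp families. In the spleen, Notch2 on B cells and the ligand Dll1 on stromal cells are required for marginal zone B cells, while Notch1 is best known for its role in T cell development.

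The arrays were of like overall signal, with medians of 7.96 to 8.03 and lower quartiles of 6.43 to 6.62 (log2). Wild type replicate 2 stood apart by its RNA of exocrine pancreas: the mean of 7 marker genes was 6.80 and 6.74 in leukaemic spleens, against 6.66 and 11.90 in wild type spleens. Markers of B cells, T cells, macrophages and red cell precursors lay well above the array medians in the wild type spleens, with list means over 10 on both arrays.

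The 6-letter core of the RBP-J site, TGGGAA, was searched on both strands in RefSeq promoter windows of build GRCm38.p6, which run from 250 bases before to 50 bases after a transcription start. The table held 38 windows for 30 of the 37 genes. A match was present for 11 of the 30 genes (36.7%), against 7651 of 27025 genes (28.3%) in the whole table. The windows of Dtx1 and Notch2, the 2 genes that passed the limma test given below, are shown. With them is that of Hes5, a classical target with 2 matches whose expression hardly differed. Capitals mark matches on either strand. Dtx1 lies at chr5:120711620-120711919 on the minus strand, Notch2 at chr3:98013288-98013587 on the plus strand and Hes5 at chr4:154960673-154960972 on the plus strand. Each sequence reads 5′ to 3′ on the strand of its gene.
Dtx1: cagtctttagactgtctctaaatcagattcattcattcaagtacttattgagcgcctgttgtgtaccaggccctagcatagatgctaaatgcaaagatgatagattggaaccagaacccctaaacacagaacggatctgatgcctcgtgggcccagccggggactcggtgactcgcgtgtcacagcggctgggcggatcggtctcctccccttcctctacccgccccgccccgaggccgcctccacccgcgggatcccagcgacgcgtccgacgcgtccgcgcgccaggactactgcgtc
Notch2: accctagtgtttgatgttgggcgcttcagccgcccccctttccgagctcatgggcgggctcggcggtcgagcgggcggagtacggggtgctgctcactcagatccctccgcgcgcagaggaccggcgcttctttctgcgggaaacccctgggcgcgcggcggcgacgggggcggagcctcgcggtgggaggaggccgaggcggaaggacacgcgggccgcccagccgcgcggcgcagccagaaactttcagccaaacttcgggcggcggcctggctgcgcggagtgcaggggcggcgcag
Hes5: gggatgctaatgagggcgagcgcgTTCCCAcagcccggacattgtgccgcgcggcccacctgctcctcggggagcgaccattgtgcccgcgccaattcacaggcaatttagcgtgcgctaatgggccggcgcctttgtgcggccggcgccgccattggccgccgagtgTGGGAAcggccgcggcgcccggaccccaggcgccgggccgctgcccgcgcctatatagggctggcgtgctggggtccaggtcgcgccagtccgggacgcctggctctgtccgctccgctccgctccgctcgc

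The letters were absent from the windows of Dtx1 and Notch2. In that of Hes5 the first bases of the matches lay 226 and 82 bases before the start, the more distant one on the opposite strand. Windows with 2 or more matches were 3.79% of the 32851 in the table. Rbpj itself had 2 listed starts whose windows overlap, so that the opposite-strand match seen 65 bases before one start is the one seen 205 bases before the other. Of the other genes of the Hes and Hey families and Nrarp, Hey2 had 2 matches, and Hes6 and Nrarp had none. Hes1, Hey1 and Heyl had no window to search. Sites outside the windows were not searched, and binding of RBP-J was not measured. A match, or the lack of one, therefore does not show whether RBP-J acts on a gene.

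**Figure D1:**
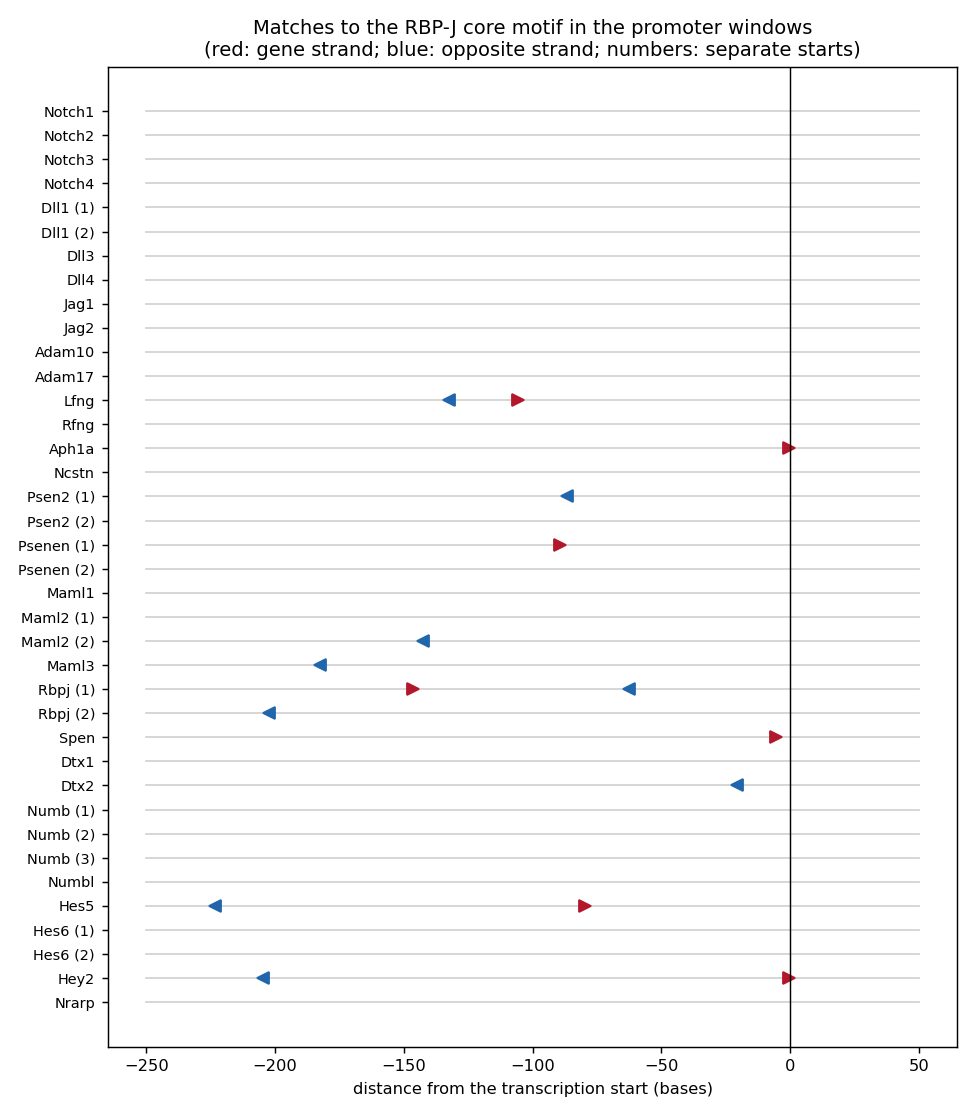
Positions of TGGGAA in the promoter windows of 30 Notch pathway genes, as distance in bases from the transcription start (0); each grey line is a window and arrows point along the strand of the match. Lfng, Hes5, Hey2 and Rbpj hold 2 matches in a window, and Dtx1 and all 4 receptor genes hold none.

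Dtx1 and Notch2 were lower in leukaemic spleen, and no member was called higher. With limma (adjusted p under 0.05 over all 19297 genes), 2 of 37 members were called lower, against 1.03% of all genes, and 0 of 37 higher, against 1.43%. At an unadjusted p under 0.05 stood 10 of 37 members (27.0%), against 20.7% of all genes. The values of the leukaemic mice lay wholly below those of the wild type mice for 14 members (37.8%), against 26.2% of all genes, and wholly above for 4 (10.8%), against 23.0%. The median difference, leukaemic minus wild type, was -0.07 over the members and -0.03 over all genes (log2), and the median size of the difference was 0.172 and 0.165. For 23 of 37 members (62.2%) the difference was smaller than 0.25, against 64.5% of all genes. Because whole spleens were measured, fewer cells of a type and less RNA per cell cannot be told apart.

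**Figure D2:**
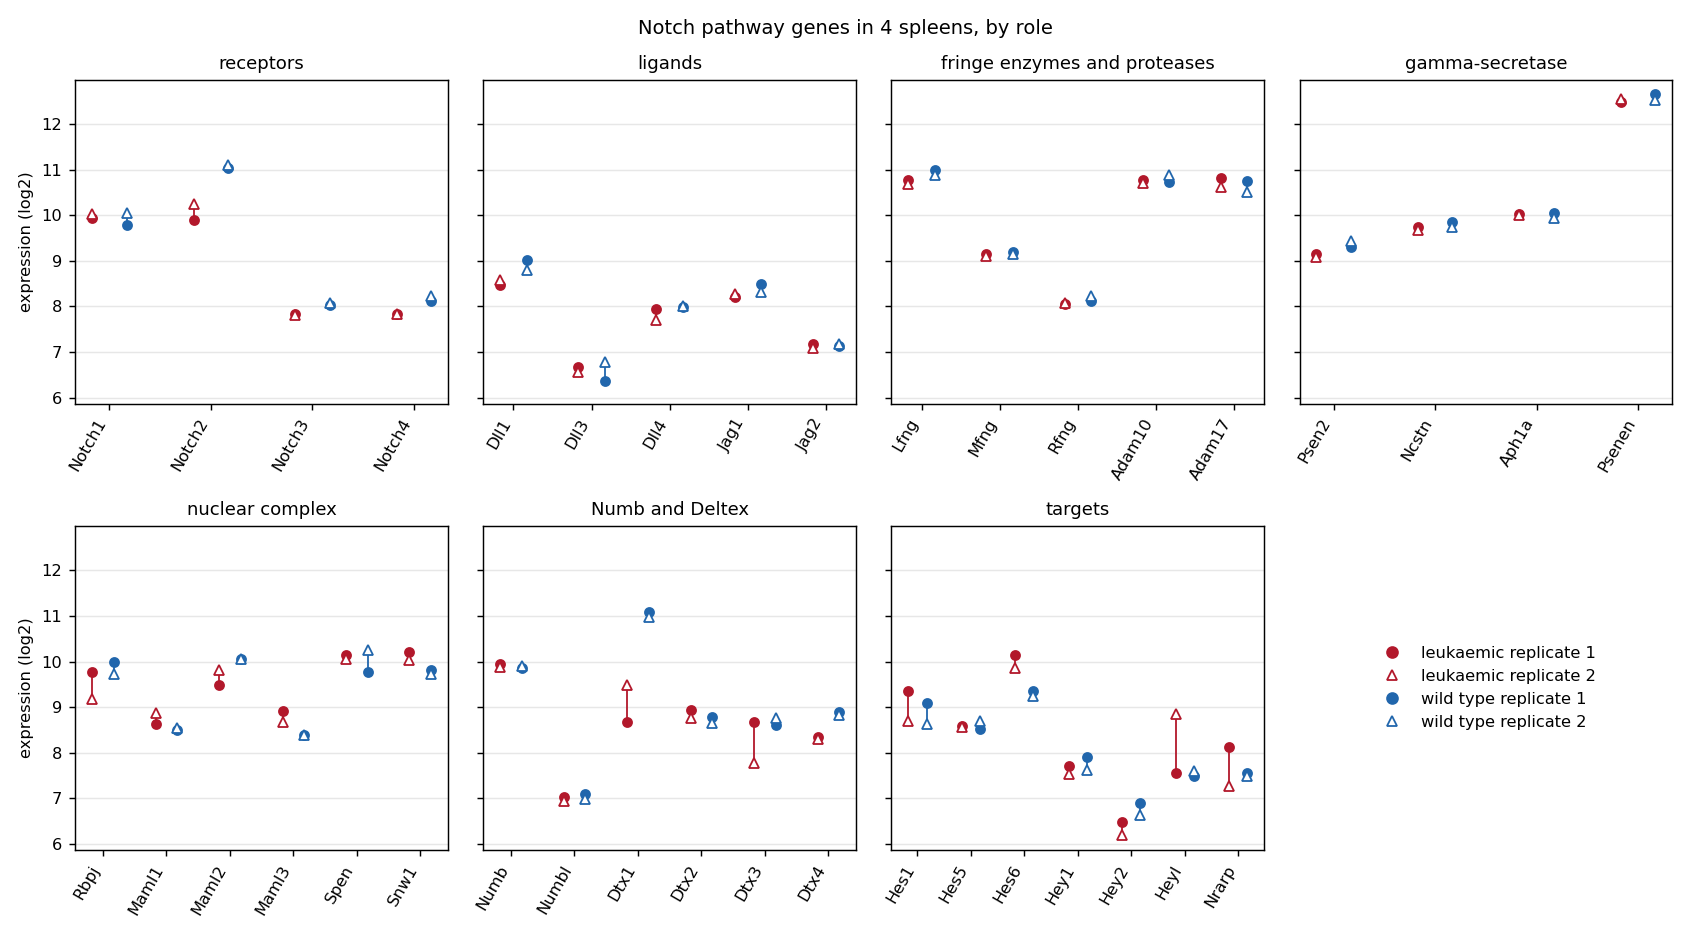
Expression (log2) of the 37 genes on each array, grouped by role; leukaemic mice are red and wild type mice blue, circles are replicate 1, open triangles replicate 2, and a line joins the 2 mice of a group. Dtx1 and Notch2 show the widest space between the groups, and Heyl, Dtx3, Nrarp and Dtx1 the widest between the leukaemic mice.

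**Figure D3:**
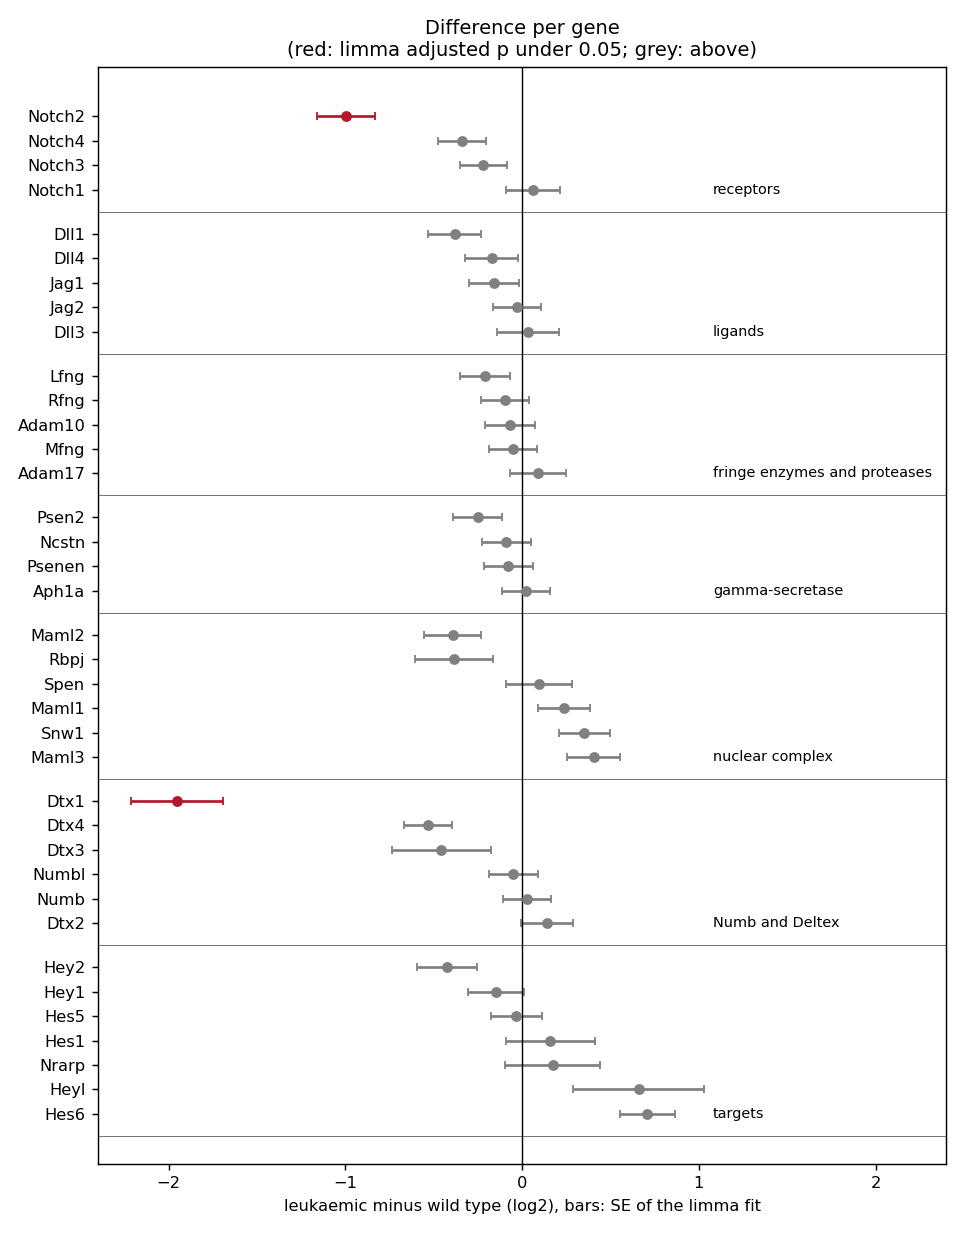
Difference, leukaemic minus wild type (log2), of each gene with its SE from the limma fit; red marks the 2 genes with an adjusted p under 0.05. Dtx1 is at -1.95 and Notch2 at -0.997, and the other 35 genes lie between -0.53 and 0.71.

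Among the receptors, Notch2 fell. It read 9.90 and 10.26 in leukaemic spleens, against 11.04 and 11.11 in wild type spleens. The groups did not overlap, and leukaemic replicate 1 was the lower of the leukaemic pair. The difference was -0.997 (log2, SE 0.17, limma adjusted p = 0.037), a 2.00-fold lower level, and ranked 295 among all genes ordered from the largest fall. The call was lost after quantile normalization (adjusted p = 0.054), with a required change of 1.2-fold (0.10), and without leukaemic replicate 1 or either wild type mouse (0.15 to 0.18), with differences of -1.04 to -0.82.

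Notch1 had the highest difference of the 4 receptors and did not pass the test. It read 9.94 and 10.02 in leukaemic spleens, against 9.79 and 10.05 in wild type spleens, values that overlap. Its difference was 0.06, with an unadjusted 95% interval of -0.30 to 0.42 (limma adjusted p = 0.90). Notch4, a receptor of vascular endothelium, and Notch3, a receptor of vascular smooth muscle, were at -0.34 and -0.22 (adjusted p = 0.22 and 0.44). Both had groups that did not overlap, and in each gene the leukaemic mice lay close together. Markers of endothelium are given beside these values because Notch4 is expressed there. The 10 markers held 0 limma calls and 2 at an unadjusted p under 0.05, which 20.7% of all genes met. Their median difference was 0.04 and their mean difference -0.02, opposite in sign, and the list means were 9.498 and 9.22 in leukaemic against 9.39 and 9.37 in wild type spleens. The members of lowest p in that list were Vwf (-0.72, SE 0.19, adjusted p = 0.092) and Tek (0.59, SE 0.18, adjusted p = 0.14).

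No ligand gene passed the limma test, and 1 of 5 stood at an unadjusted p under 0.05, against 20.7% of all genes. Dll1, the Delta-like ligand on which marginal zone B cells depend, had the lowest difference of the 5. It read 8.47 and 8.59 in leukaemic spleens, against 9.02 and 8.81 in wild type spleens. All values of the leukaemic mice were below those of the wild type mice, with a difference of -0.38 (SE 0.15, limma adjusted p = 0.21). At the other end was Dll3, a divergent Delta-like protein that does not activate Notch on neighbouring cells, with 6.67 and 6.56 in leukaemic and 6.38 and 6.78 in wild type spleens, a difference of 0.03 (SE 0.18). Its values lie near the lower quartile of the arrays (6.43 to 6.62), where signal is not shown to exceed background. Dll4, the ligand of the thymus and of sprouting vessels, was at -0.17, Jag1 at -0.16 and Jag2 at -0.03. The leukaemic values of Dll4 and Jag1 also lay below all wild type values, though the nearest mice of the 2 groups were close. Stromal markers were called lower in 1 of 9 cases, the chemokine gene Ccl19, against 1.03% of all genes. Their list means were 9.74 and 9.67 in leukaemic against 10.29 and 9.95 in wild type spleens. Their part in the Dll1 value was not tested.

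Of the enzymes that modify and cut the receptors, 0 of 9 passed the limma test and 0 of 9 stood at an unadjusted p under 0.05. That unadjusted threshold was met by 20.7% of all genes, and 9 genes are too few to set these enzymes apart from that share. Fringe enzymes add sugars to Notch and change which ligand it prefers. Lfng, a fringe that acts with Notch2 in marginal zone B cells, read 10.78 and 10.68 in leukaemic spleens, against 11.002 and 10.88 in wild type spleens. It had the lowest difference of this class, -0.21 (SE 0.14, limma adjusted p = 0.49), while Mfng and Rfng were at -0.05 and -0.10. Leukaemic values of Lfng, Mfng and Rfng all lay below the wild type values, as in 26.2% of all genes. Adam17, a protease also known for releasing tumour necrosis factor, had the highest, with 10.82 and 10.62 in leukaemic and 10.76 and 10.51 in wild type spleens, a difference of 0.09 (SE 0.16). Adam10, the protease that makes the ligand-induced cut, was at -0.07, with a 95% interval of -0.41 to 0.27.

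Of the gamma-secretase subunits, Psen2, a presenilin and thus a catalytic subunit, had the lowest difference. It read 9.15 and 9.08 in leukaemic spleens, against 9.30 and 9.43 in wild type spleens. The groups did not overlap, but the difference of -0.25 (SE 0.14) did not pass (limma adjusted p = 0.39). Aph1a, a scaffold subunit, had the highest, with 10.03 and 10.01 in leukaemic and 10.05 and 9.95 in wild type spleens, a difference of 0.02 (SE 0.14). Nicastrin, encoded by Ncstn, was at -0.09 and Psenen, which activates the complex, at -0.08. Psenen read 12.48 and 12.54 in leukaemic spleens, against 12.65 and 12.53 in wild type spleens. Its second probe set read 11.56 and 11.44 in leukaemic spleens, against 11.61 and 11.35 in wild type spleens, a difference of 0.02 (SE 0.16). Both sets of Psenen lay within 1 SE of 0.

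In the nuclear complex, Rbpj did not pass the test. Its brighter probe set read 9.78 and 9.18 in leukaemic spleens, against 9.99 and 9.74 in wild type spleens. The groups overlapped: leukaemic replicate 1 lay inside the wild type values and only leukaemic replicate 2 lay below them. The differences from the wild type mean were -0.08 and -0.69 for leukaemic replicates 1 and 2, and a gap between the leukaemic mice as wide as theirs (0.60) was seen in 4.42% of all genes. The difference was -0.38 (SE 0.22, limma adjusted p = 0.41). The second probe set of Rbpj read 6.58 and 6.49 in leukaemic spleens, against 6.40 and 6.71 in wild type spleens, a difference of -0.02 (SE 0.16). These values lie near the lower quartile of the arrays, where signal is not shown to exceed background. No label states which exons lie between the loxP sites or under these probes, and the Rbpj values cannot serve as a test of the recombination.

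The 3 Mastermind genes, whose products bind RBP-J together with Notch and recruit acetyltransferases, did not pass, and their differences had unlike signs. Maml3 had the highest difference of the nuclear class and read 8.92 and 8.68 in leukaemic spleens, against 8.40 and 8.39 in wild type spleens. Its groups did not overlap (difference 0.40, SE 0.15, limma adjusted p = 0.19). Maml2 had the lowest, with 9.49 and 9.82 in leukaemic spleens, against 10.05 in both wild type spleens. The difference was -0.39 (SE 0.16, adjusted p = 0.23), with groups that did not overlap. Its second probe set read 9.24 and 9.78 in leukaemic spleens, against 10.07 and 10.003 in wild type spleens, and gave -0.52 (SE 0.20), again without overlap. Maml1 was at 0.24. Snw1, which encodes the co-regulator SKIP, was at 0.35 with groups that did not overlap (adjusted p = 0.23), and Spen, a co-repressor that competes with Notch for RBP-J and limits marginal zone B cells, at 0.09.

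Dtx1 fell further than any other member. This Deltex gene encodes a ubiquitin ligase that binds the Notch intracellular domain and is itself a Notch target in lymphocytes. It read 8.67 and 9.49 in leukaemic spleens, against 11.10 and 10.97 in wild type spleens. All leukaemic values lay more than 1 unit below all wild type values, and the leukaemic mice stood 0.82 apart, as against 0.12 for the wild type pair. The difference was -1.95 (SE 0.26, limma adjusted p = 0.024), a 3.88-fold lower level, and ranked 35 among the falls of all genes. The call was lost without wild type replicate 1 (difference -1.89, adjusted p = 0.15) or 2 (-2.02, 0.17), in limma fits that called only 38 and 0 of all genes, with 4501 and 3142 at an unadjusted p under 0.05.

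The other Deltex genes and the Numb genes did not pass. Dtx4, which encodes a further ligase of the family, read 8.35 and 8.30 in leukaemic spleens, against 8.89 and 8.83 in wild type spleens. Its groups did not overlap and the mice within each were close, and the difference was -0.53 (SE 0.14, adjusted p = 0.087). Dtx3 read 8.68 and 7.78 in leukaemic spleens, against 8.61 and 8.76 in wild type spleens. Only leukaemic replicate 2 was low, and the difference of -0.46 had a wide error (SE 0.28). Dtx2, the gene of highest difference in this class, read 8.95 and 8.77 in leukaemic and 8.78 and 8.65 in wild type spleens (0.14, SE 0.15). Numb and Numbl, which encode adaptors that oppose Notch signalling by promoting its removal from the membrane, were at 0.03 and -0.05, with 95% intervals of -0.29 to 0.35 and -0.38 to 0.28.

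Of the 7 Hes, Hey and Nrarp genes, none passed the limma test, and the highest differences were those of Hes6 and Heyl. At an unadjusted p under 0.05 stood 2 of the 7, against 20.7% of all genes. Hes6 encodes a Hes family protein that, unlike Hes1, is not a canonical Notch target and can antagonise Hes1. It read 10.14 and 9.86 in leukaemic spleens, against 9.35 and 9.24 in wild type spleens. The groups did not overlap, with a difference of 0.71 (SE 0.16, limma adjusted p = 0.066). Hes6 passed when the dimmest genes were left out (adjusted p = 0.046) and with an intensity trend and robust prior (0.040).

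The classical target genes Hes1 and Hes5 overlapped between groups. Hes1, a transcriptional repressor, read 9.36 and 8.71 in leukaemic spleens, against 9.10 and 8.64 in wild type spleens. The mice within each group stood further apart than the group means, and the difference of 0.16 had an interval of -0.44 to 0.76. Hes5, a related repressor whose window with 2 matches to the RBP-J core is printed above, read 8.59 and 8.57 in leukaemic spleens, against 8.52 and 8.70 in wild type spleens. Its difference was -0.03, with an interval of -0.37 to 0.31 (limma adjusted p = 0.95). Hey2, a repressor of the cardiovascular system, had the lowest difference of the targets, with 6.49 and 6.19 in leukaemic and 6.89 and 6.64 in wild type spleens (-0.43, SE 0.17, adjusted p = 0.22). Its values lay close to the lower quartile of the arrays (6.43 to 6.62), where signal is not shown to exceed background. Hey1 was at -0.15.

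Heyl and Nrarp separated the leukaemic mice from each other. Heyl, a Hey family repressor, read 7.57 and 8.84 in leukaemic spleens, against 7.498 and 7.60 in wild type spleens. Leukaemic replicate 2 alone stood high, and a gap between leukaemic mice as wide as the 1.28 of Heyl was seen in 0.726% of all genes. The difference over both mice was 0.66 (SE 0.37, limma adjusted p = 0.40); without leukaemic replicate 1 it was 1.30 (adjusted p = 0.0014) and without leukaemic replicate 2 it was 0.02. The adjusted p of 0.0014 rests on 1 common variance for all genes (SE 0.3 for every member), and that fit holds no estimate of the spread between leukaemic mice. Nrarp, a target whose product feeds back on the Notch complex, read 8.12 and 7.26 in leukaemic spleens, against 7.55 and 7.49 in wild type spleens. Here leukaemic replicate 1 was above and leukaemic replicate 2 below both wild type mice, so that the difference of 0.17 (SE 0.27) averages opposite values. Apart from Heyl in leukaemic replicate 2 and Nrarp in leukaemic replicate 1, the values of both genes lay below the array medians (7.96 to 8.03).

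Over the members, 4 of 37 (10.8%), namely Heyl, Dtx3, Nrarp and Dtx1, differed by more than 0.8 between the leukaemic mice, against 2.46% of all genes. That limit was set after the values were seen. The wild type mice never differed by more than 0.47 in a member, while 1378 of 19297 genes differed by more than 0.5 between them. Over the members the median gap was 0.103 between the leukaemic mice and 0.120 between the wild type mice. Over all genes these medians were 0.123 and 0.197. Leukaemic replicate 2 was the male and leukaemic replicate 1 had the heavier spleen. The part of sex or of disease extent in the gaps between the leukaemic mice was not tested.

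**Figure D4:**
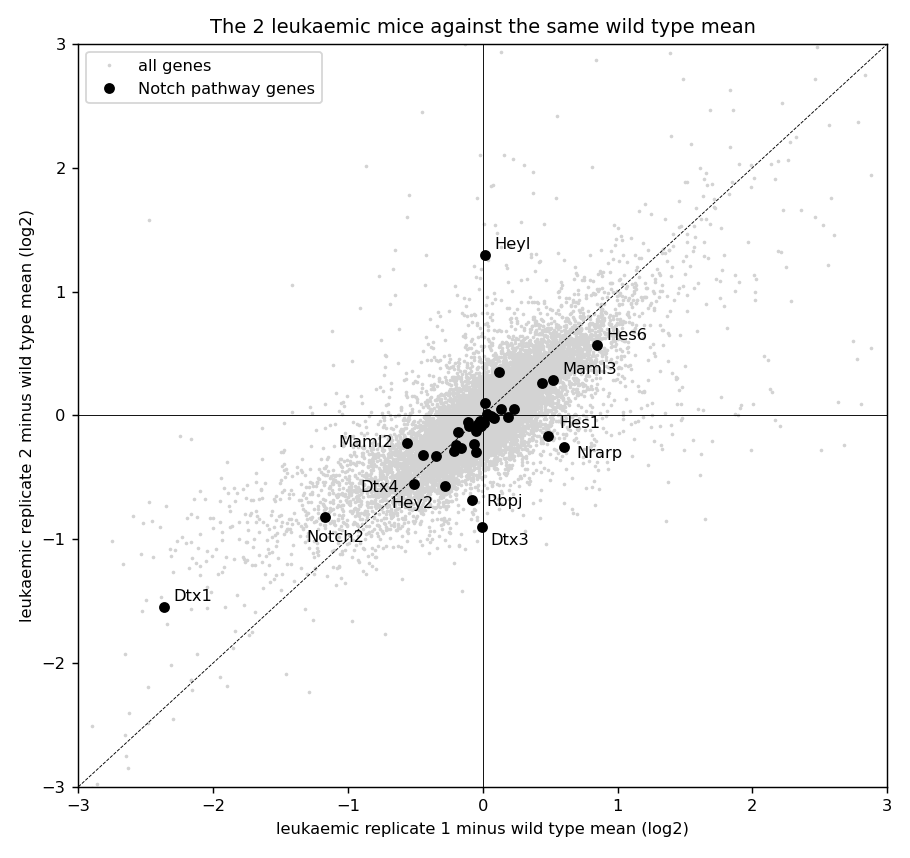
Difference of each leukaemic mouse from the mean of the 2 wild type mice (log2), replicate 1 across and replicate 2 upwards; black points are the 37 Notch pathway genes, grey points all genes (42 of them lie beyond the axes), and the dashed line marks equal values. Both axes share the same wild type mean. Dtx1 and Notch2 lie low in both mice, whereas Heyl and Dtx3 deviate in replicate 2 alone.

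Of 43 further pathway genes taken from a list, 39 were measured. The list was chosen with earlier results of these data known, so its shares are not a test of the pathway. Among these, 3 (7.69%) were called lower by limma, against 1.03% of all genes, and 0 higher, against 1.43%. The median difference of the 39 genes was -0.07. The 3 belonged to the 6 measured lymphoid target genes. Of 33 genes for ubiquitin ligases, sugar transferases, further secretase subunits and ligand-like proteins, co-repressors and co-activators, 0 were called. At an unadjusted p under 0.05 stood 5 of these 33, against 20.7% of all genes. Cr2, the complement receptor CD21 of mature B cells, read 9.98 and 10.58 in leukaemic spleens, against 12.36 and 11.93 in wild type spleens (difference -1.86, SE 0.24, adjusted p = 0.021). Ccnd1, which encodes cyclin D1, was at -0.95 (SE 0.15, adjusted p = 0.033) and Gata3, a T cell transcription factor, at -0.76 (SE 0.14, adjusted p = 0.048). In each of these genes the groups did not overlap. Myc, of the same list and the gene of a growth-promoting transcription factor, had the opposite sign without being called: it read 11.45 and 11.14 in leukaemic spleens, against 10.76 and 10.75 in wild type spleens (difference 0.54, SE 0.16, adjusted p = 0.12). Among the co-repressors, the histone deacetylase gene Hdac2 read 11.13 and 10.58 in leukaemic spleens, against 10.29 and 10.03 in wild type spleens (difference 0.69, SE 0.21, adjusted p = 0.13).

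Markers of splenic cell types are given beside Dtx1 and Notch2. Of 6 measured markers of marginal zone and follicular B cells, all had leukaemic values below the wild type values, as in 26.2% of all genes. Limma called 1 of the 6, Cr2, lower, against 1.03% of all genes. This is the same Cr2 value as in the lymphoid target list. Their mean level was 9.17 and 9.72 in leukaemic spleens, against 10.65 and 10.35 in wild type spleens. The leukaemic mice differed from the wild type mean by -1.32 and -0.78 in this list, beside -1.17 and -0.82 for Notch2 and -2.36 and -1.55 for Dtx1. Such falls were not particular to this list. The T cell list lay at -1.68 and -1.07, the NK cell list at -1.57 and -1.01 and the neutrophil list at -1.53 and -0.739. In the dendritic cell list the leukaemic mice were alike, at -1.39 and -1.45.

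Calls among the markers of T cells, dendritic cells, NK cells and neutrophils were all towards lower values. Of all genes, 1.03% were called lower and 26.2% had leukaemic values wholly below the wild type values. An unadjusted p under 0.05 was met by 20.7% of all genes. T cell markers were called lower in 5 of 9 cases, and 9 of 9 had groups that did not overlap, with the largest falls in Cd3g (-1.78) and Cd3e (-1.70). Dendritic cell markers were called lower in 5 of 7 cases, led by Siglech (-2.15) and Ccr9 (-2.02), and all 7 had leukaemic values below the wild type values. NK cell markers were called lower in 3 of 6 cases, led by Ncr1 (-2.29) and Klrd1 (-2.05), with 5 of 6 below without overlap. Neutrophil markers were called lower in 2 of 6 cases, Camp (-1.24) and Csf3r (-1.22), and all 6 lay below without overlap, among them S100a8 (-1.31), which was not called. Macrophage and erythroid markers were called in 0 of 8 and 0 of 4 cases by limma, with 6 and 3 at an unadjusted p under 0.05 and mean differences of -0.545 and -0.515. Their members of lowest p were Siglec1 (-0.95) and Marco (-0.93) for macrophages, and Alas2 (-0.54) and Epor (-0.68) for erythroid cells.

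Markers of the B lineage as a whole had no common direction. Their list of 8 genes had a mean difference of -0.02 and a median of 0.02, and 4 genes lay above 0 and 4 below. Ebf1 (1.11) and Pou2af1 (0.92) were called higher and Cd22 (-0.84) lower, while Blk (-0.84) and Ms4a1 (-0.81) lay below without overlap and were not called. Of 7 precursor B cell markers, all above 0, 5 were called higher, led by Igll1 (5.47) and Rag1 (3.57). Of all genes, 1.43% were called higher and 1.03% lower. The part of changed cell numbers in the Dtx1 and Notch2 values was not tested. The wild type mice, of which 1 held pancreas RNA, differed by 0.12 in Dtx1 and 0.07 in Notch2.

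**Figure D5:**
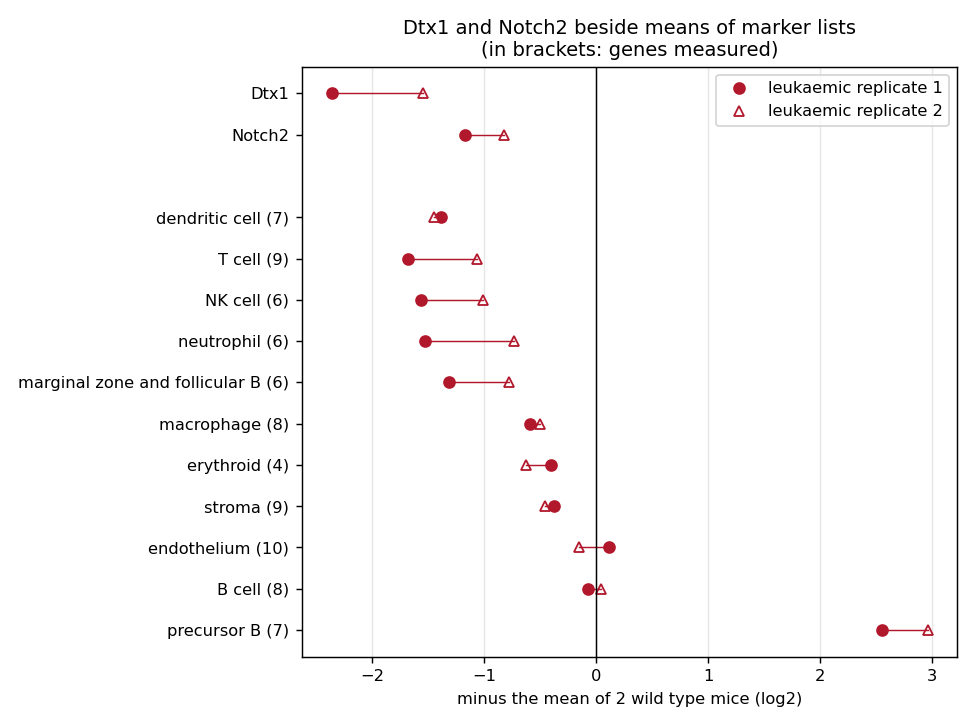
Differences of leukaemic replicates 1 (circles) and 2 (open triangles) from the wild type mean (log2), for Dtx1 and Notch2 and for the mean of each marker list. The list of marginal zone and follicular B cell markers lies at -1.32 and -0.78, the T cell list at -1.68 and -1.07 and the NK cell list at -1.57 and -1.01. The endothelium list lies within 0.16 of 0 and the precursor B cell list above 2.5.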

How the data were processed

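The values are log2 signals, 1 for each probe set on each array, as the authors deposited them. The submitters' processing notes name RMA, R 2.15.0 and limma 3.12.1, without settings. Detection calls were not analysed here. Of 23309 probe sets, 20729 had a single gene symbol in the platform annotation. Mice were grouped by title, and replicates are individual mice. The comparison, leukaemic minus wild type, was fitted in R 4.3.3 using lmFit and eBayes of limma 3.58.1, with no covariate. The probe set of highest mean was kept per gene, and Benjamini-Hochberg adjustment ran over 19297 genes. The fit had 2 residual and 4.83 prior degrees of freedom; the number of arrays limits the precision, and an exact permutation test of 2 against 2 mice cannot go below a two-sided p of 0.333. Intervals are unadjusted 95% intervals of the moderated fit.

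The members, gene lists, naming rule and marker lists were chosen with earlier results of these data known. Values per array were given for Rbpj, for called members, for members with 2 probe sets, and for the highest and lowest difference in each role class; further members were added after their values were seen (Dtx3, Dtx4, Hes1, Hes5, Heyl and Nrarp). The scripts were tested on simulated data with 50 genes changed at each size. Changes of 0.5, 1, 2 and 3 (log2) were recovered in 2%, 18%, 70% and 82% of cases. A gene that was not called is therefore not shown to be unchanged. In the simulation limma called 92 genes, 6 of them unchanged, against 475 called in the deposited data. The adjusted threshold was thus not the same, and the recovered shares are only a guide. Alternatives were centring, quantile normalization, a filter on dim genes, another variance prior, other uses of probe sets, a minimum fold change, a replicate block and each mouse left out. Tables and figures used Python 3.11.15 with pandas 2.3.3 and matplotlib 3.10.9.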

Additional observations from a re-analysis of the deposited data

How the results depend on the processing

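The count of called members was 2 as deposited. It was 1 (Dtx1) after quantile normalization and with a minimum fold change of 1.2, and 0 to 2 with each mouse left out: 0 without either wild type mouse, where Dtx1 and Notch2 differed by -2.02 to -1.89 and -1.03 to -0.96, Dtx1 and Heyl without leukaemic replicate 1, and Dtx1 and Notch2 without leukaemic replicate 2. In these fits the lone mouse of a group is taken to vary like the other group. Without a leukaemic mouse limma gave all genes 1 common variance (SE 0.3 for every member), on which those calls rest. It was 3, with Hes6 added, when dim genes were left out, with an intensity trend and robust prior, and with the replicate block. The replicate number is a number from the titles only: deviations of same-numbered mice correlated at r = -0.09 across genes. Over all 19297 genes limma called 475 as deposited, 261 after quantile normalization, 123 with the minimum fold, 338 with all probe sets fitted, 965 with trend and robust prior, 1693 with the block, and 0 to 1043 with a mouse left out; with 0, 3142 genes stood at an unadjusted p under 0.05. Without the dim genes 954 of 12865 were called. Of the 37 differences, 24 kept their sign under each of the 12 alternatives in which they were run (11 for Dll3 and Hey2, which are among the dim genes), and the other 13 were at most 0.17 in size. The median difference over members stayed within the replicate spread under all 12.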

Other observations

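Il2ra, the alpha chain of the interleukin-2 receptor and a gene of the lymphoid target list, read 7.76 and 10.64 in leukaemic spleens, against 8.91 and 8.34 in wild type spleens. Like Heyl, it was high in leukaemic replicate 2 alone, and the 2 leukaemic values lay on either side of both wild type values (difference 0.57, SE 0.81, limma adjusted p = 0.80). S1pr3, a sphingosine-1-phosphate receptor of marginal zone B cells, read 8.32 and 10.10 in leukaemic spleens, against 10.89 and 10.71 in wild type spleens. Its groups did not overlap, and leukaemic replicate 1 was the lower of the leukaemic pair (difference -1.59, SE 0.50, adjusted p = 0.14). Both genes were chosen after their values were seen.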
